A study of Mus musculus with 12 samples.

Results

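The genes described here encode receptors through which the growth factors of the granulocyte and monocyte lineages act: Csf1r, Csf3r, Csf2rb, Csf2rb2 and Il3ra. Their chromatin accessibility was read from an ATAC-seq table of mouse bone marrow progenitors. Every region of the table that overlapped the body of 1 of the 5 genes, or the 20 kb on either side of it, was taken, whatever its level or change, which gave 45 of 121336 regions. Csf1r had 11 regions, Csf3r 10, Csf2rb 13, Csf2rb2 10 and Il3ra 5. Csf2rb and Csf2rb2 are neighbours, and 4 regions lay in the windows of both.

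URE mice are homozygous for a deletion of the element upstream of Spi1 that drives this gene of the transcription factor PU.1, and WT mice carry the element. The mice were littermates on a C57BL/6 background, 8 to 12 weeks old and without any treatment named in the sources. The deletion is carried in the germline, so that it is present in every cell of a URE mouse and not in progenitors alone. From each genotype LSK cells (lineage-negative, Sca-1+, c-Kit+ stem and early progenitor cells) and GMP (granulocyte-monocyte progenitors, lineage-negative, Sca-1-, c-Kit+, CD16/32+) were sorted. The 4 groups, named WT-LSK and WT-GMP, URE-LSK and URE-GMP, held 3 libraries each, from 3 mice per genotype and cell type.

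Csf1r is the tyrosine kinase receptor of M-CSF and IL-34 and the defining receptor of monocytes and macrophages. Csf3r is the receptor of G-CSF, the main growth factor of neutrophils. Csf2rb encodes the common beta chain that carries the signal of GM-CSF, IL-3 and IL-5, Csf2rb2 encodes a beta chain that in mice serves IL-3 alone, and Il3ra encodes the alpha chain that binds IL-3. The cytokine receptors of the group signal through JAK kinases and STAT factors. PU.1 belongs to the ETS family, binds purine-rich sites with a GGAA core, and is known as an activator of several of these receptor genes.

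The libraries held 23072701 to 62204826 counts. Levels are given in CPM, which are counts scaled to library sizes adjusted by TMM factors. Accessibility was summed in the window of the deleted element, 12 to 17 kb upstream of the Spi1 start codon. The sum was 51.8 to 59.0 CPM in the WT-LSK libraries and 4.38 to 4.81 CPM for URE-LSK. It was 71.3 to 86.9 CPM for WT-GMP and 4.17 to 7.17 CPM for URE-GMP, so that all 6 URE libraries lay below all 6 WT libraries. The promoters of 6 of 7 stem cell markers (Ly6a had no region) summed to 288 to 349 CPM in LSK and 235 to 262 CPM in GMP, and those of 7 of 7 GMP markers to 100 to 128 CPM in LSK, 284 to 348 CPM in WT-GMP and 438 to 463 CPM in URE-GMP. Promoters of B cell and T cell markers, 2 of 5 each with a region, summed to at most 9.98 and 15.4 CPM in any library, and 0 of 5 erythroid markers had a region. Those of 4 of 5 megakaryocyte markers summed to 61.8 to 83.5 CPM for WT-LSK, 88.5 to 93.6 CPM for URE-LSK and 23.8 to 53.7 CPM in GMP. Within LSK the stem cell, GMP and megakaryocyte markers were each higher in all URE than in all WT libraries, and their part in the results was not tested. Promoters in general were higher there too: over all 15618 promoter regions the median log2 fold change of URE-LSK against WT-LSK was 0.23. In bulk samples a lower value can stand for fewer cells with an open region or for less opening in each cell, and these cannot be told apart.

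A few stretches of sequence show motifs found at some of the regions described below. Most of the regions that fell did not hold the exact letters searched for PU.1, and whether PU.1 binds there was not measured. The stretches are taken from GRCm38, read on the plus strand except for the last, and capitals mark the motif named. The first comes from a region 6.6 kb upstream of the Csf3r start site that rose in URE (chr4:126017774-126018073), with 3 copies of the CEBP motif TTGCNNAA, the site of the C/EBP factors of granulocyte genes. The next pair are regions within introns of Csf3r that fell (chr4:126028044-126028329 and chr4:126030774-126031073), each with the PU.1 motif GAGGAAGT. The fourth lies downstream of Csf3r, inside the neighbouring gene Mrps15, rose in URE (chr4:126053402-126053701) and holds the RUNX motif AACCACA on either strand. The fifth is a region downstream of Csf2rb with 1 PU.1 motif (chr15:78355594-78355865). The last is a stretch of 30 bases just after the Csf2rb2 start site, taken from the RefSeq promoter sequence and read on the minus strand as the gene is (chr15:78305676-78305705), where the PU.1 motif lies on the opposite strand, beginning at base 28 of the transcript.
Csf3r -6.6 kb: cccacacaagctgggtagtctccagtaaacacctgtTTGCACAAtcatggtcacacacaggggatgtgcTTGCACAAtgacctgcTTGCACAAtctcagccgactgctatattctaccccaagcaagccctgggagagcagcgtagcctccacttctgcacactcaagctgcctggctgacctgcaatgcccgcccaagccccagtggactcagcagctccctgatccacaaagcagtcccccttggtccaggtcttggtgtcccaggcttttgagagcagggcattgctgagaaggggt
Csf3r +3.6 kb: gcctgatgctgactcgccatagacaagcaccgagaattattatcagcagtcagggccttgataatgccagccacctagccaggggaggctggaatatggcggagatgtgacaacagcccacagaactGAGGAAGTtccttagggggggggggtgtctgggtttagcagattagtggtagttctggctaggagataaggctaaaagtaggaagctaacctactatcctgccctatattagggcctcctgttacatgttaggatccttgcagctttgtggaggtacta
Csf3r +6.4 kb: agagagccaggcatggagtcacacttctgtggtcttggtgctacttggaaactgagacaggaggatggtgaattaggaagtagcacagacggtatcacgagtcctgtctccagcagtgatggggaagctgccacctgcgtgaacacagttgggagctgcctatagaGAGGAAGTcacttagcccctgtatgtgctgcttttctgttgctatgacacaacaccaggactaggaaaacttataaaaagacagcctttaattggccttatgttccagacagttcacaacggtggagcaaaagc
Csf3r +29 kb: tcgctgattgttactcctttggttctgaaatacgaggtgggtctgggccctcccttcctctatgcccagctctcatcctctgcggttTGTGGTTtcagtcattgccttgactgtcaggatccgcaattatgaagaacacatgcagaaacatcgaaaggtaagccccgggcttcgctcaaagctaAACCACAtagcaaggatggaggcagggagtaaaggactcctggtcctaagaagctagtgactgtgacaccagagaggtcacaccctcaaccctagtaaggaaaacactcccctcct
Csf2rb +30 kb: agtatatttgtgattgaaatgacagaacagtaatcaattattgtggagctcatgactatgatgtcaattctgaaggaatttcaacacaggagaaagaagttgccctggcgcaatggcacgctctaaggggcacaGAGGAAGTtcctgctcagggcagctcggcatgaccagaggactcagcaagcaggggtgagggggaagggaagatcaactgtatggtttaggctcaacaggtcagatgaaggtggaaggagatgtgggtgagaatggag
Csf2rb2 start site: gggcactggcaACTTCCTCaatctgctctc

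Among the 45 regions, as over the whole table, falls in accessibility outnumbered rises when the element was lost. In LSK 18 regions fell and 3 rose, and in GMP 13 fell and 3 rose. A region is said to fall or rise, or called, past 2 thresholds, 0.05 for the adjusted p and 1 for the size of the log2 fold change (edgeR's quasi-likelihood test, Benjamini-Hochberg adjustment over all 121336 regions). Over the whole table, losses in URE were called at 23.9% and gains at 13.6% of regions in LSK, and at 24.1% and 15.6% in GMP. The 13 losses in GMP were 28.9% of the 45 regions, near the share of the whole table. The median log2 fold change of the 45 regions was -0.36 in LSK against 0.14 over all regions, and 0.00 against 0.06 in GMP. With offsets that remove a trend with GC content, 11 regions fell and 4 rose in LSK, and the medians were 0.05 for the 45 regions and 0.33 for all.

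The direction was mostly shared by the cell types: 13 regions were called lower in both, 2 were called higher in both, 5 were called lower in LSK alone, 1 was called higher in LSK alone, 1 was called higher in GMP alone and 23 were called in neither. No region was called in opposite directions. Of the regions called lower in LSK, 72.2% were lower in GMP too, where the share was 78.3% over the whole table, so that the sharing was near the background. Being called in 1 cell type only does not show a difference between them, which is tested further below. The calls were uneven between the genes: 7 of 11 Csf1r regions and 5 of 10 Csf3r regions fell in LSK, against 4 of 13 at Csf2rb, 3 of 10 at Csf2rb2 and 0 of 5 at Il3ra. At Il3ra the unadjusted p of edgeR's test was under 0.05 at 1 of 5 regions in LSK and 4 of 5 in GMP, all of these higher in URE. The adjusted p was under 0.05 at 1 of 5 in LSK and 3 of 5 in GMP. Of all promoter regions, 41.1% in LSK and 36.5% in GMP were higher at that adjusted p, so that higher values were common in the whole table.

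**Figure D1:**
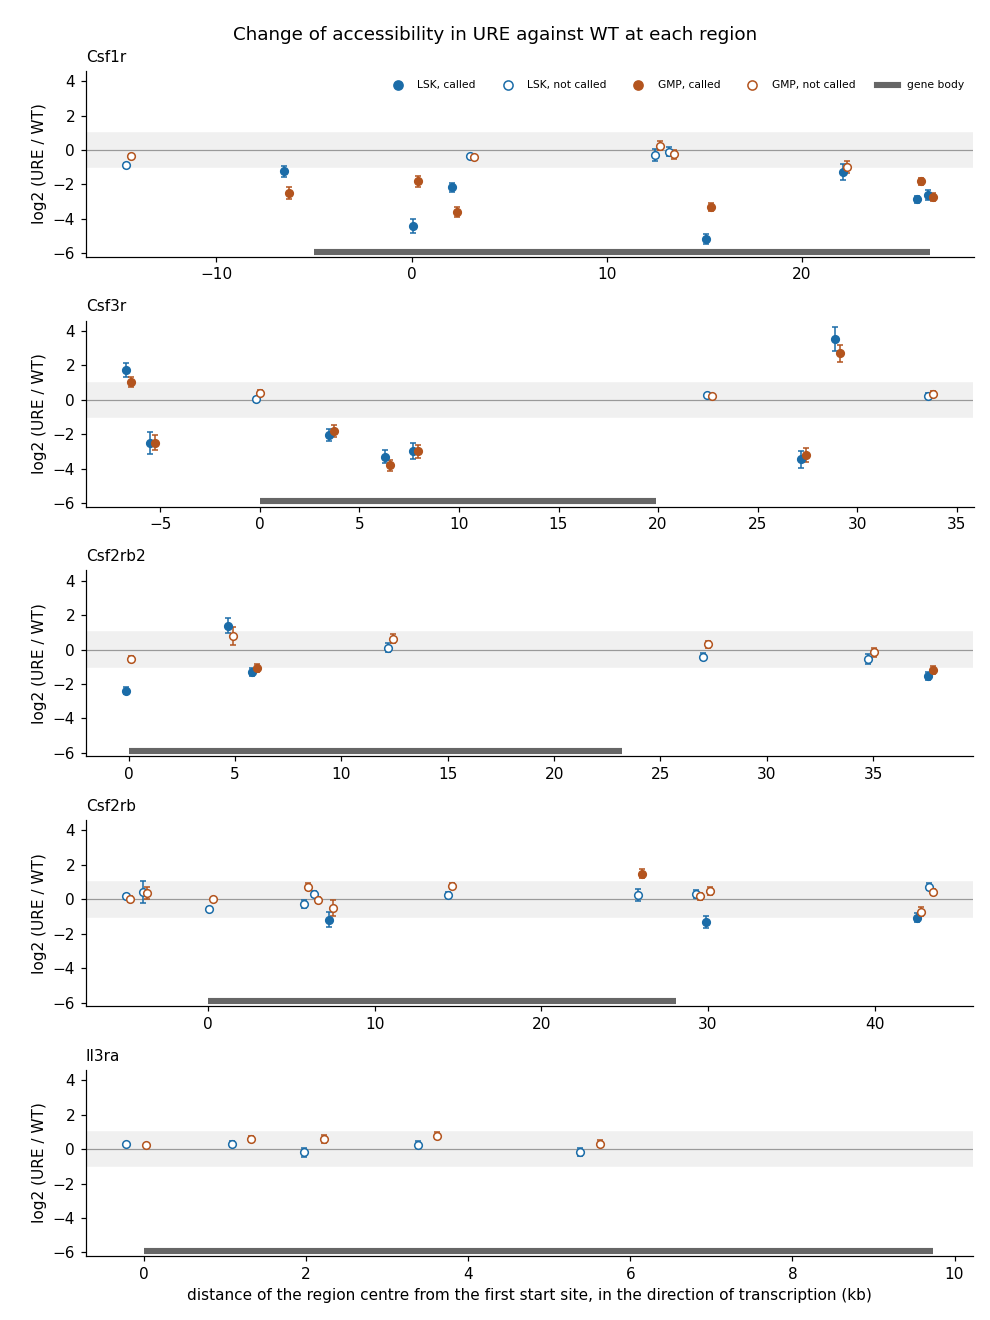
Log2 fold change of accessibility in URE against WT (vertical axis, ± SE) for each region, by the distance of its centre from the start site in kb (horizontal axis), 1 panel per gene. Blue points are LSK and brown points GMP, filled where called; the grey band spans the fold threshold and the dark bar the gene body. Csf1r and Csf3r hold the deepest losses, down to -5.18, and the Il3ra points stay within the band.

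At Csf1r no region rose, and none of the 11 had a higher level in URE at an unadjusted p under 0.05 in edgeR's quasi-likelihood test. The promoter region (+0.2 kb, chr18:61105539-61106019, from the start site into intron 1) gave 4.23, 3.84 and 3.44 CPM for WT-LSK and 0.119, 0.168 and 0.235 CPM for URE-LSK. In GMP it gave 12.9, 12.2 and 9.17 CPM for WT and 3.12, 4.93 and 1.502 CPM for URE. All URE libraries lay below all WT libraries of the same cell type, and URE-LSK was down to 5 to 11 counts per library. The log2 fold change was -4.42 ± 0.43 (SE) in LSK (adjusted p = 3.12e-07), against -1.82 ± 0.30 in GMP (adjusted p = 8.41e-05).

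A region in intron 11 of Csf1r (+15.2 kb, chr18:61120574-61120912) lost the most of all 45 in LSK. It gave 6.69, 7.26 and 8.95 CPM for WT-LSK and 0.119, 0.251 and 0.256 CPM for URE-LSK, a log2 fold change of -5.18 ± 0.28 (adjusted p = 2.2e-09). GMP libraries gave 15.4, 12.6 and 13.6 CPM for WT and 1.66, 1.39 and 1.12 CPM for URE, a log2 fold change of -3.32 ± 0.22 (adjusted p = 2.11e-08). Neither the promoter region nor this intronic region held the PU.1 motif in its central 300 bases, and the intronic one held 1 CEBP motif. Only the exact letters GAGGAAGT were searched for PU.1, so that other sites of this factor would be missed.

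Intron 2 of Csf1r, which holds the enhancer known as FIRE, carried 2 regions of unlike behaviour. Which of them covers FIRE was not determined. The widest Csf1r region (+3.1 kb, 1028 bp) was the most accessible, at 43.2 ± 1.14 CPM (SD, n = 3) for WT-LSK and 33.6 ± 0.758 CPM for URE-LSK, and at 45.6 ± 2.18 CPM for WT-GMP and 34.1 ± 5.27 CPM for URE-GMP. Its log2 fold changes of -0.36 (adjusted p = 0.00504) and -0.42 (adjusted p = 0.00156) passed the adjusted p but not the fold threshold, although the libraries did not overlap. The region beside it (+2.2 kb, chr18:61107623-61107997) gave 4.17, 3.998 and 4.71 CPM for WT-LSK against 0.976, 1.12 and 0.790 CPM for URE-LSK. Its GMP levels were 10.6, 9.27 and 10 CPM for WT against 0.495, 1.28 and 0.630 CPM for URE. The losses there were -2.17 ± 0.27 in LSK and -3.60 ± 0.28 in GMP (adjusted p = 5.54e-06 and 7.41e-08), the latter the deepest of any Csf1r region in GMP.

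Past the 3' end of the principal Csf1r transcript lay a pair of regions that fell in both cell types. The first (+26.0 kb, chr18:61131295-61131773) gave 4.33, 5.997 and 6.07 CPM for WT-LSK, 0.904, 0.726 and 0.619 CPM for URE-LSK, 13.5, 14.8 and 14.0 CPM for WT-GMP and 3.79, 3.75 and 4.36 CPM for URE-GMP. The second (+26.6 kb, chr18:61132057-61132379), with 2 PU.1 motifs, gave 1.76, 1.88 and 2.31 CPM for WT-LSK, 0.262, 0.223 and 0.470 CPM for URE-LSK, 7.20, 6.44 and 5.60 CPM for WT-GMP and 0.947, 0.954 and 0.945 CPM for URE-GMP. WT and URE libraries were apart at both. Changes on the log2 scale were -2.86 ± 0.21 and -1.83 ± 0.18 at the first and -2.61 ± 0.28 and -2.75 ± 0.24 at the second, in LSK and GMP respectively, with adjusted p from 2.25e-08 to 8.9e-07.

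The remaining Csf1r calls were at weak regions. Upstream, at -6.4 kb (chr18:61099058-61099330), the means were 1.36 CPM for WT-LSK, 0.564 CPM for URE-LSK, 2.48 CPM for WT-GMP and 0.433 CPM for URE-GMP, a fall of -1.25 ± 0.34 in LSK (adjusted p = 0.00557), against -2.50 ± 0.34 in GMP (adjusted p = 1.36e-05). In intron 15 (+22.2 kb, chr18:61127608-61127872) they were 0.481, 0.193, 2.36 and 1.20 CPM, a fall of -1.30 ± 0.47 in LSK (adjusted p = 0.0249), with -0.99 ± 0.33 in GMP just short of the fold threshold. Both LSK calls were fragile: that at -6.4 kb was lost without URE-LSK replicate 2 (-0.98), and that at +22.2 kb without URE-LSK replicate 1 (-0.98) or 3 (-1.15) or WT-LSK replicate 2 (-1.13). The GMP value at +22.2 kb crossed the fold threshold without URE-GMP replicate 2 (-1.07), WT-GMP replicate 1 (-1.25) or any of the WT-LSK libraries (-1.01 in each). With loess offsets the LSK values were -0.38 and -0.30 and no longer called. Upstream, the wide region at -14.5 kb with 1 PU.1 motif went from 21.1 ± 2.88 CPM for WT-LSK to 11.3 ± 1.61 CPM for URE-LSK, and its log2 fold change of -0.90 (adjusted p = 5.31e-05) passed the adjusted p only. The pair in intron 10, at +12.6 and +13.3 kb, had log2 fold changes of -0.31 to 0.24 and adjusted p of 0.434 or more.

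**Figure D2:**
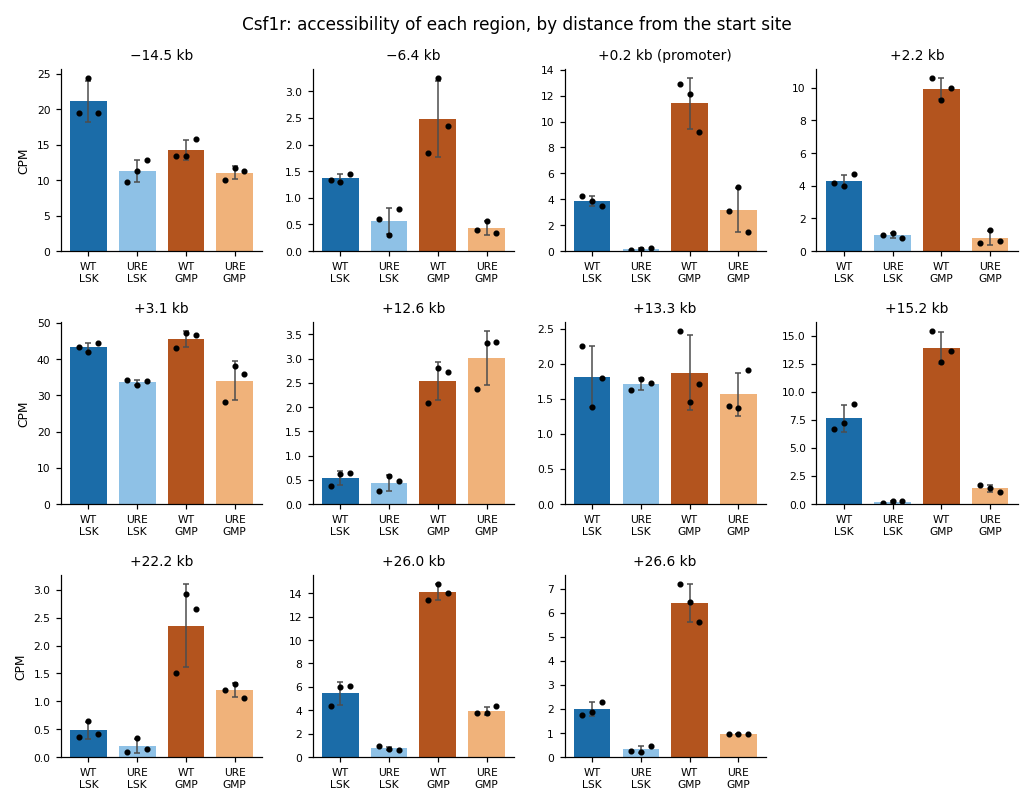
Accessibility of the 11 Csf1r regions in CPM (vertical axis, from 0, a scale per panel), by group. Bars are means of 3 libraries with the SD, and points are the libraries. At +15.2 kb the URE-LSK bar stands at 0.209 CPM against 7.63 CPM for WT-LSK, while at +3.1 kb all 4 bars lie between 33.6 and 45.6 CPM.

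Promoter accessibility of monocyte and macrophage genes moved with these values. Summed over 6 of 7 listed markers (Emr1, an older symbol for Adgre1, had no region of its own), it was 53.4 to 61.6 CPM for WT-LSK and 47.4 to 50.4 CPM for URE-LSK, and 91.3 to 112 CPM for WT-GMP and 71.2 to 83.6 CPM for URE-GMP. The part of these differences in the Csf1r results was not tested.

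Csf3r combined losses and gains around a promoter that was open in every group. The promoter region (-0.1 kb, chr4:126024082-126024886) gave 21.8, 18.2 and 20.8 CPM for WT-LSK and 20.5, 16.0 and 25.7 CPM for URE-LSK. For GMP the values were 24.3, 26.0 and 24.4 CPM for WT and 32.0, 28.97 and 37.4 CPM for URE. The LSK libraries of the genotypes overlapped, with a log2 fold change of 0.03 ± 0.14 (adjusted p = 0.858), and the GMP libraries did not, with 0.40 ± 0.14 (adjusted p = 0.0247), short of the fold threshold. The sign of the LSK value changed with the scaling and with the library left out.

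Inside the gene, 3 intronic regions fell in both cell types. The one in intron 4 (+6.4 kb, chr4:126030754-126031094), whose PU.1 motif is shown above, gave 1.76, 1.88 and 1.01 CPM for WT-LSK, 0.119, 0.112 and 0.214 CPM for URE-LSK, 4.602, 6.61 and 4.06 CPM for WT-GMP and 0.301, 0.468 and 0.291 CPM for URE-GMP. Its fall was -3.30 ± 0.40 in LSK (adjusted p = 2.91e-06), against -3.82 ± 0.33 in GMP (adjusted p = 2.05e-07), the deepest of all 45 regions in GMP. The other region with a PU.1 motif (+3.6 kb, intron 3, 752 bp from an alternative start site) gave 2.39, 2.33 and 3.56 CPM for WT-LSK, 0.452, 0.502 and 1.004 CPM for URE-LSK, 2.05, 3.21 and 4.89 CPM for WT-GMP and 0.947, 1.04 and 0.945 CPM for URE-GMP. It fell with log2 fold changes of -2.07 ± 0.35 in LSK and -1.80 ± 0.33 in GMP (adjusted p = 0.000111 and 0.000225). In intron 6 (+7.8 kb, chr4:126032241-126032459) the means were 0.958 CPM for WT-LSK, 0.117 CPM for URE-LSK, 2.05 CPM for WT-GMP and 0.254 CPM for URE-GMP, and the falls were -2.97 ± 0.45 and -2.99 ± 0.38 (adjusted p = 2.95e-05 and 6.34e-06). In none of the 3 did URE and WT libraries of a cell type overlap.

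Upstream of Csf3r a gain and a loss lay side by side. The region at -6.6 kb (chr4:126017663-126018186), with the 3 CEBP motifs shown above, gave 0.236, 0.530 and 0.221 CPM for WT-LSK and 0.809, 0.530 and 1.62 CPM for URE-LSK. In GMP it gave 9.71, 8.60 and 6.06 CPM for WT and 17.01, 16.7 and 15.8 CPM for URE. It rose by 1.73 ± 0.42 in LSK (adjusted p = 0.00228), against 1.03 ± 0.28 in GMP (adjusted p = 0.00449). The lowest URE-LSK library was level with the highest WT-LSK library at the digits given, and the GMP call fell short of the fold threshold without WT-GMP replicate 3 (0.87) or by library size only (0.91).

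The region at -5.4 kb (chr4:126019013-126019357), with 1 CEBP motif, went the other way. It gave 0.945, 0.938 and 0.523 CPM for WT-LSK, 0.190, 0.0837 and 0.128 CPM for URE-LSK, 5.90, 7.09 and 4.38 CPM for WT-GMP and 0.904, 1.80 and 0.267 CPM for URE-GMP. Within each cell type all URE libraries were below all WT libraries, at 3 to 8 counts in URE-LSK. The log2 fold change was -2.50 in either cell type, with an SE of 0.63 in LSK and 0.43 in GMP (adjusted p = 0.00277 and 0.000116).

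Downstream of Csf3r the same contrast recurred within 2 neighbouring regions. At +27.3 kb (chr4:126051711-126051963) the means were 0.892 CPM for WT-LSK, 0.0816 CPM for URE-LSK (2 to 4 counts per library), 2.353 CPM for WT-GMP and 0.246 CPM for URE-GMP, a fall of -3.45 ± 0.50 and -3.19 ± 0.40 (adjusted p = 2.13e-05 and 5.15e-06). At +29 kb (chr4:126053391-126053714), the region with the RUNX motifs shown above, the libraries gave 0, 0.163 and 0.0402 CPM for WT-LSK (0 to 4 counts) and 0.785, 0.307 and 0.876 CPM for URE-LSK. In GMP they gave 0.753, 0.315 and 0.231 CPM for WT and 2.91, 2.52 and 2.45 CPM for URE. This was the largest rise of all 45 regions, 3.53 ± 0.72 in LSK (adjusted p = 0.000497), against 2.71 ± 0.49 in GMP (adjusted p = 0.000168), though the size in LSK rests on few counts. The 2 other regions downstream were the promoters of Mrps15 and Oscp1, genes of the mitochondrial ribosome and of an organic solute carrier partner, with log2 fold changes of 0.20 to 0.35 and none called.

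**Figure D3:**
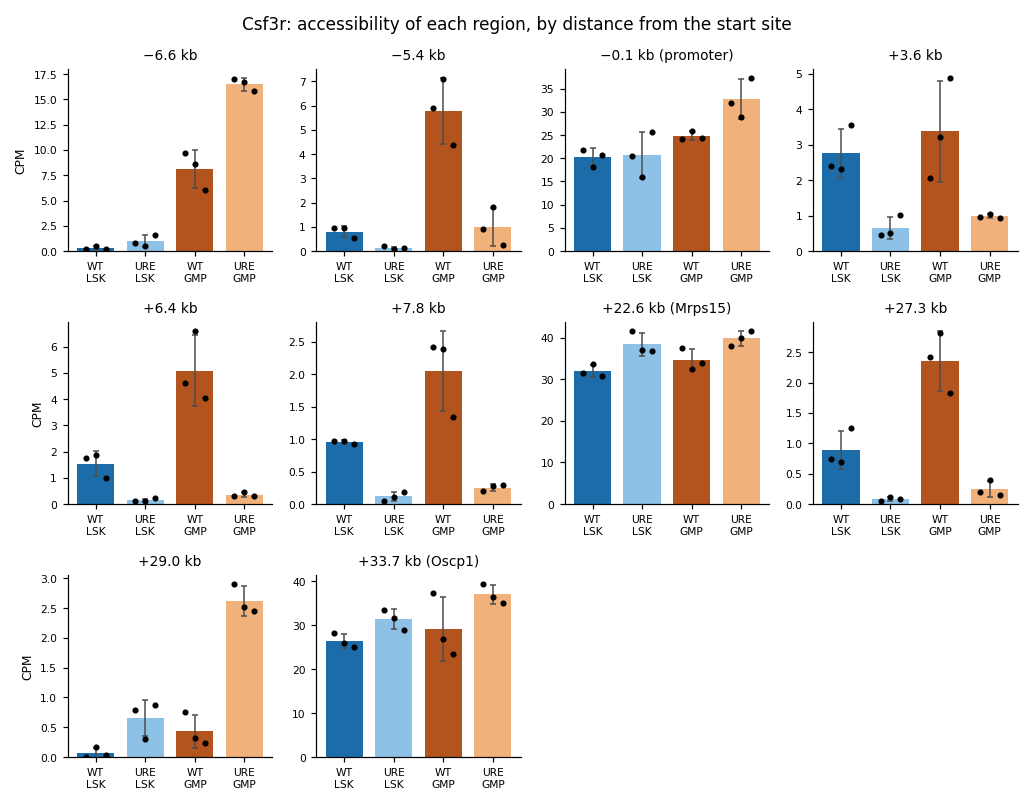
Accessibility of the 10 Csf3r regions in CPM (vertical axis, from 0, a scale per panel), by group. Bars are means of 3 libraries with the SD, points are the libraries, and gene names mark promoters of neighbours. The bars rise from WT to URE at -6.6 and +29 kb and fall at -5.4, +3.6, +6.4, +7.8 and +27.3 kb, beside a promoter at 20.3 and 20.7 CPM for WT-LSK and URE-LSK.

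Promoters of mature neutrophil genes also differed between the genotypes. Summed over 5 of 6 listed markers (Retnlg had no region), their accessibility was 12.9 to 15.5 CPM for WT-LSK and 7.02 to 8.16 CPM for URE-LSK, and 36.6 to 54.3 CPM for WT-GMP and 74.99 to 86.6 CPM for URE-GMP. Their part in the Csf3r results was not tested.

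At Csf2rb2, the beta chain gene of IL-3, the promoter region (chr15:78305524-78305968) gave 9.26, 9.26 and 10.3 CPM for WT-LSK and 1.67, 2.345 and 1.56 CPM for URE-LSK. GMP libraries gave 10.3, 9.17 and 9.15 CPM for WT and 6.44, 7.98 and 4.99 CPM for URE. WT libraries of both cell types were level, URE-LSK libraries were far below them and URE-GMP libraries lay between. The log2 fold change was -2.38 ± 0.21 in LSK (adjusted p = 1.19e-07), against -0.55 ± 0.19 in GMP (adjusted p = 0.0199), the latter short of the fold threshold.

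Further regions of Csf2rb2 fell in both cell types. In intron 1 (+5.9 kb, chr15:78299669-78300006) the libraries gave 7.56, 5.997 and 6.56 CPM for WT-LSK and 2.88, 1.93 and 3.33 CPM for URE-LSK, and 5.06, 5.12 and 5.16 CPM for WT-GMP and 2.11, 2.20 and 3.03 CPM for URE-GMP. Downstream (+37.7 kb, chr15:78267862-78268245) the means were 7.81 and 2.74 CPM for WT-LSK and URE-LSK and 8.55 and 3.76 CPM for WT-GMP and URE-GMP. The falls were -1.30 ± 0.21 and -1.07 ± 0.21 at the first (adjusted p = 7.79e-05 and 0.00046) and -1.51 ± 0.23 and -1.19 ± 0.23 at the second (adjusted p = 4.22e-05 and 0.000305). Both GMP values were close to the fold threshold and lost the call when a library was left out: at +5.9 kb without URE-GMP replicate 1 (-0.97) or 2 (-0.996), and at +37.7 kb without WT-GMP replicate 3 (-0.96). GC content offsets brought all 4 values to between -0.995 and -0.83, under the threshold.

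Beside the intronic loss, a weak region at +4.8 kb (chr15:78300836-78301073, intron 1, 1 RUNX motif) rose in LSK. It gave 0.682, 1.22 and 0.724 CPM for WT-LSK and 2.28, 2.74 and 1.73 CPM for URE-LSK, a log2 fold change of 1.39 ± 0.45 (adjusted p = 0.0142). Its GMP levels were 0, 0.273 and 0.438 CPM for WT and 0.323, 0.538 and 0.509 CPM for URE, with overlapping libraries (0.78 ± 0.55, adjusted p = 0.222), but it was called with loess offsets (1.59, adjusted p = 0.0176). The LSK call was lost without WT-LSK replicate 1 (adjusted p = 0.0783) or 3 (adjusted p = 0.0759).

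The promoter of Csf2rb, the shared beta chain, was less affected than that of its neighbour. Its region (+0.2 kb, chr15:78325645-78326187), which holds the PU.1 and the CEBP motif once each in its central 300 bases, gave 17.6, 19.9 and 21.4 CPM for WT-LSK and 12.7, 14.7 and 13.1 CPM for URE-LSK. For GMP the values were 20.6, 20.3 and 20.3 CPM for WT and 20.3, 20.2 and 20.9 CPM for URE. The LSK libraries did not overlap, with a log2 fold change of -0.54 ± 0.11 (adjusted p = 0.000394) that passed the adjusted p but not the fold threshold. The GMP libraries were level, with 0.00 ± 0.10 (adjusted p = 0.979).

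No region within the Csf2rb window fell in GMP by the criteria, although 2 of 13 were lower at an unadjusted p under 0.05 in edgeR's test, and 4 fell in LSK, the Csf2rb2 promoter among them. The region at +30 kb (chr15:78355594-78355865), downstream of the gene and shown above with its PU.1 motif, gave 0.892, 1.10 and 0.704 CPM for WT-LSK and 0.190, 0.475 and 0.385 CPM for URE-LSK. In GMP it gave 6.15, 5.20 and 3.32 CPM for WT and 7.23, 7.49 and 5.67 CPM for URE, and these libraries overlapped. Its log2 fold change was -1.33 ± 0.36 in LSK (adjusted p = 0.00445), against 0.49 ± 0.25 in GMP (adjusted p = 0.106). The LSK call was lost with GC content offsets (-0.85) and in a test against the fold threshold (glmTreat).

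The other pair of Csf2rb regions lower in LSK were weak. At +42.7 kb (chr15:78368348-78368553, 1 RUNX motif) the libraries gave 2.62, 1.92 and 1.71 CPM for WT-LSK and 1.10, 1.03 and 0.876 CPM for URE-LSK, a log2 fold change of -1.06 ± 0.26 (adjusted p = 0.00256), and -0.71 ± 0.25 in GMP (adjusted p = 0.022). At +7.4 kb (chr15:78333067-78333306, intron 2) they gave 2.31, 1.43 and 0.764 CPM for WT-LSK and 0.880, 0.586 and 0.491 CPM for URE-LSK, a log2 fold change of -1.19 ± 0.44 (adjusted p = 0.0297) with overlapping libraries. The first call was lost without URE-LSK replicate 3 (-0.97) or WT-LSK replicate 1 (-0.91), and the second without URE-LSK replicate 2 (-1.12) or 3 (-1.01) or WT-LSK replicate 1 (-0.77). With loess offsets the values were -0.50 and 0.15.

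In GMP a region rose at +25.9 kb (chr15:78351478-78351924), within the gene record but past its principal transcript. It gave 2.09, 2.06 and 1.18 CPM for WT-GMP and 5.27, 5.20 and 4.43 CPM for URE-GMP, a log2 fold change of 1.497 ± 0.26 (adjusted p = 0.000112). In LSK it gave 0.551, 0.449 and 0.342 CPM for WT and 0.381, 0.586 and 0.619 CPM for URE, which overlapped (0.26 ± 0.34, adjusted p = 0.523). In intron 2 (+5.9 kb, chr15:78331560-78331829) the GMP libraries gave 4.39, 4.66 and 2.97 CPM for WT and 7.15, 6.87 and 6.11 CPM for URE, apart but short of the fold threshold (0.75 ± 0.20, adjusted p = 0.00451), which GC content offsets took past it (1.03, adjusted p = 0.000349).

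**Figure D4:**
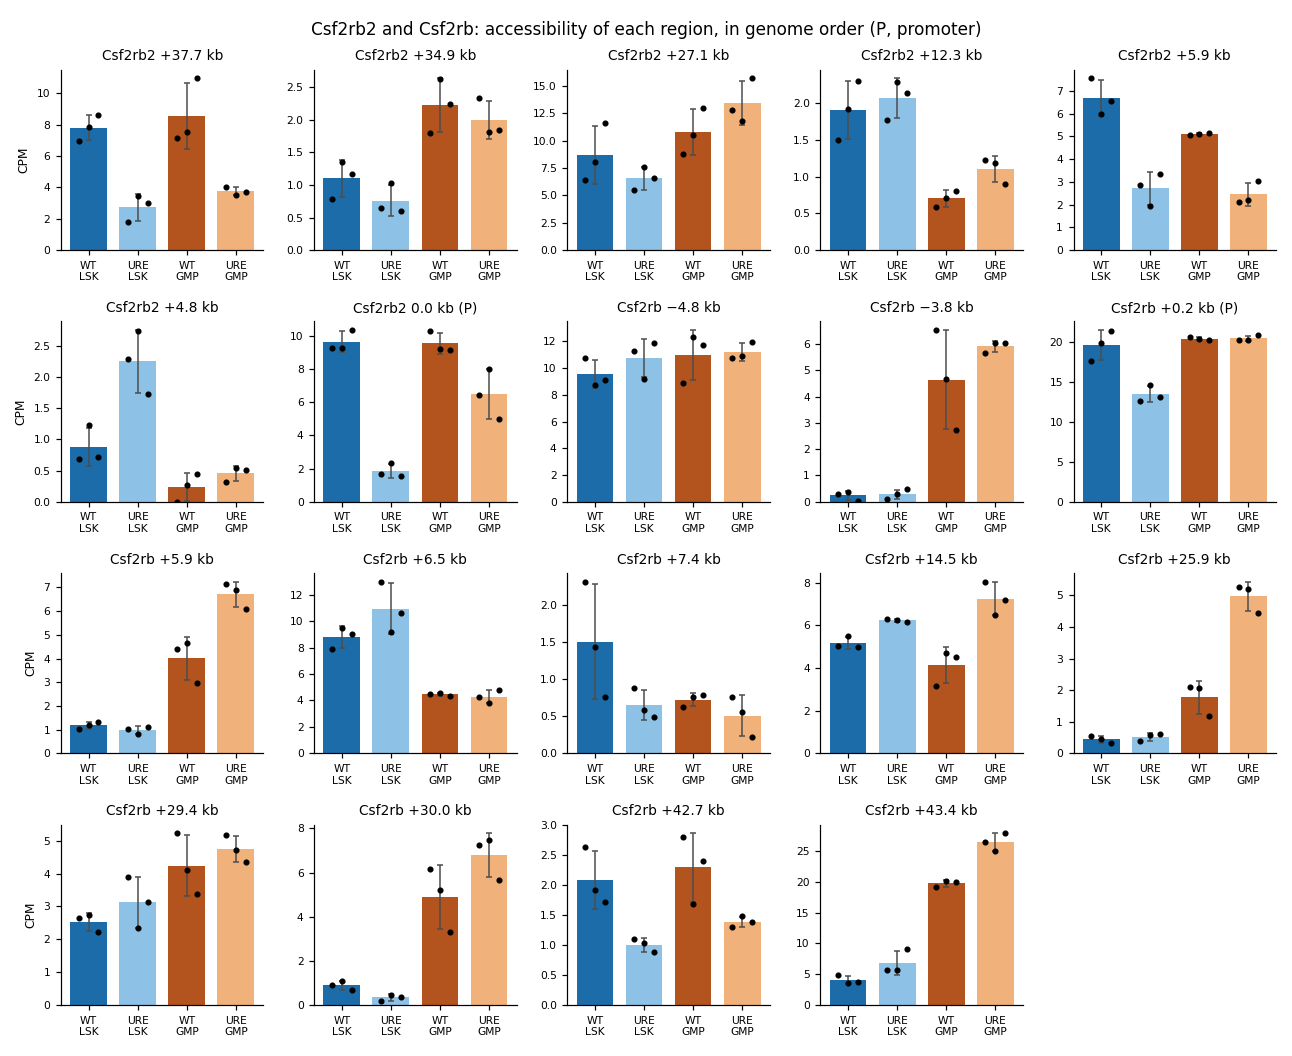
Accessibility of the 19 regions of the Csf2rb2 and Csf2rb windows in CPM (vertical axis, from 0, a scale per panel), by group, in genome order. Bars are means of 3 libraries with the SD, and points are the libraries. The Csf2rb2 promoter stands at 1.86 CPM for URE-LSK against 9.62 CPM for WT-LSK, and the Csf2rb promoter at 20.4 and 20.5 CPM for WT-GMP and URE-GMP.

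Csf2rb and Csf2rb2 arose by duplication and share sequence, so that reads could be placed on the wrong copy. Of the 19 regions in their windows, 15 held no stretch of 50 bases that occurs elsewhere in those windows. The exceptions were the Csf2rb promoter region with 4.45% of its stretches repeated, the Csf2rb2 promoter region with 5.56%, a region upstream of Csf2rb at -3.8 kb with 32.5% and one in intron 4 of Csf2rb2 at +12.3 kb with 52.3%. Neither of the last 2 was called between the genotypes. With stretches of 36 bases the shares were 12.01%, 14.2%, 42.0% and 64.8%, and 3 further regions had shares of up to 14.3%.

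Promoters of mast cell and basophil genes, cells that respond to IL-3, stood apart by genotype as well. For Mcpt8 and Cpa3, the 2 of 5 listed markers with a region, they summed to 7.38 to 11.4 CPM for WT-LSK and 23.8 to 30.6 CPM for URE-LSK, and to 9.90 to 13.1 CPM for WT-GMP and 24.8 to 34.5 CPM for URE-GMP. Prss34, Ms4a2 and Fcer1a had no promoter region. Their part in the Csf2rb and Csf2rb2 results was not tested.

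Il3ra, the alpha chain gene of the IL-3 receptor, had the highest promoter level per kb of region in WT-LSK of the 5 genes. Its promoter region (-0.1 kb, chr14:14345425-14346867) gave 62.9, 68.9 and 62.7 CPM for WT-LSK and 77.3, 82.1 and 79.99 CPM for URE-LSK. GMP libraries gave 99.1, 80.7 and 82.1 CPM for WT and 95.9, 102 and 109 CPM for URE, and these libraries overlapped. The log2 fold changes of 0.30 ± 0.08 in LSK (adjusted p = 0.00546), as well as 0.23 ± 0.08 in GMP (adjusted p = 0.0241), passed the adjusted p but not the fold threshold, and with loess offsets they were -0.01 and -0.02. They were near the medians of all promoter regions, 0.23 in LSK and 0.17 in GMP. Per kb of region, the WT-LSK level was 44.9 CPM at the Il3ra promoter and 7.97 CPM at that of Csf1r, the lowest. The 4 intronic regions of Il3ra had log2 fold changes of -0.18 to 0.30 in LSK and 0.33 to 0.77 in GMP, and none was called.

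Whether the loss of the element acted differently in GMP and LSK was tested with the interaction. It is the log2 fold change of URE against WT in GMP less that in LSK, and so compares ratios and not amounts. It was called at 7 of the 45 regions, 6 positive and 1 negative, where 8.96% of all regions were called positive and 5.03% negative. With loess offsets or GC content offsets 4 were positive and 2 negative, and leaving out URE-LSK replicate 2 made the negative calls 2. The Csf1r promoter lost a smaller share of its level in GMP than in LSK, with an interaction of 2.60 ± 0.54 (adjusted p = 0.0038). So did the Csf1r intron 11 region with 1.86 ± 0.36 (adjusted p = 0.00229). In CPM both lost more in GMP. The promoter means went from 3.83 to 0.174 in LSK and from 11.4 to 3.18 in GMP. Those of the intron 11 region went from 7.63 to 0.209 and from 13.9 to 1.39. The URE-LSK libraries held 5 to 11 and 5 to 12 counts there. The Csf2rb2 promoter (1.83 ± 0.28, adjusted p = 0.000477) and the Csf2rb region at +30 kb (1.82 ± 0.44, adjusted p = 0.00962) also had a positive interaction. Only the Csf1r region at +2.2 kb had a negative one, with the deeper loss in GMP (-1.43 ± 0.38, adjusted p = 0.0181).

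A pair of interaction calls lay at the fold threshold. At Csf1r +26.0 kb it was 1.03 ± 0.27 (adjusted p = 0.0162), and it fell under 1 without URE-GMP replicate 3 (0.96), URE-LSK replicate 3 (0.90) or WT-LSK replicate 3 (0.998). At Csf2rb +5.9 kb it was 1.01 ± 0.31 (adjusted p = 0.037), and the call was lost without any of 7 libraries, URE-GMP replicates 1 and 2, URE-LSK replicates 1 and 2, WT-GMP replicate 3 and WT-LSK replicates 2 and 3, at 0.89 to 1.06. At the Csf2rb promoter the interaction of 0.54 ± 0.15 (adjusted p = 0.0198) passed the adjusted p alone, and at the promoters of Csf3r and Il3ra it was 0.36 ± 0.20 (adjusted p = 0.246) and -0.07 ± 0.12 (adjusted p = 0.731).

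**Figure D5:**
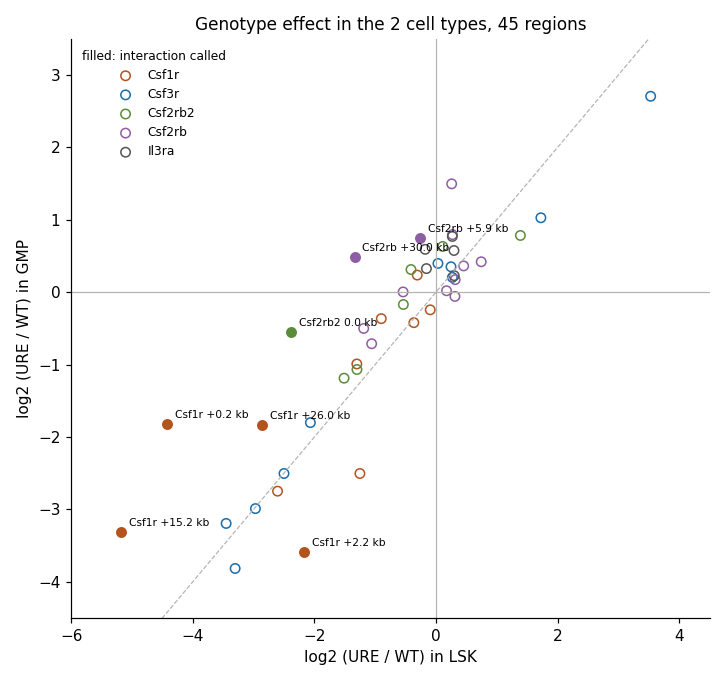
Log2 fold change in URE against WT in LSK (horizontal axis) and in GMP (vertical axis) for the 45 regions, coloured by gene. The dashed line marks equal change, and filled points are the 7 regions with an interaction called. The Csf2rb2 promoter lies at -2.38 and -0.55, and Csf1r +2.2 kb, below the line, at -2.17 and -3.60.

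The step from LSK to GMP opened receptor gene regions in either genotype. In WT mice 18 of 45 regions were higher and 2 lower in GMP than in LSK, where 21% of all regions were called higher and 16.8% lower. In URE mice 19 were higher and 2 lower, where 27.6% and 21.6% of all regions were called. Without WT-LSK replicate 3 the lower calls in WT numbered 4. Of the 18 regions that opened in WT, 8 were lower in URE in both cell types, 2 were lower in URE in LSK alone, 2 were higher in URE in both and 1 was higher in GMP alone. Of all 25450 regions that opened in WT, 23.2%, 7.91%, 16% and 17.4% fell in these classes.

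The steepest opening was at Csf3r -6.6 kb, from 0.329 CPM for WT-LSK to 8.12 CPM for WT-GMP, a log2 fold change of 4.73 ± 0.38 (adjusted p = 1.71e-07). A region upstream of Csf2rb (-3.8 kb, chr15:78321841-78322120) followed, from 0.241 to 4.64 CPM (4.41 ± 0.50, adjusted p = 3.21e-06), the one with 32.5% of its stretches repeated nearby. A region downstream of Csf2rb (+43.4 kb) went from 4.08 to 19.8 CPM for WT and from 6.84 to 26.5 CPM for URE (2.27 ± 0.18 and 1.95 ± 0.17, adjusted p = 1.59e-07 and 1.01e-07). At the Csf1r promoter the step was 1.57 ± 0.30 in WT (adjusted p = 0.000374) and 4.17 ± 0.43 in URE (adjusted p = 3.58e-07). Its URE-GMP libraries, at 1.502 to 4.93 CPM, overlapped those of WT-LSK, at 3.44 to 4.23 CPM.

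Summed over its window, each gene was given 1 level. These sums add regions of other genes where windows overlap, and they weigh the strongest regions most. They were fitted over 18435 genes, with changes counted at an adjusted p under 0.05 and no fold threshold. In LSK 22.4% of all genes were called lower and 19% higher, in GMP 28.4% and 22.5%, and for the interaction 11.2% and 9.88%. The Csf1r sum was 99.2 ± 4.14 CPM for WT-LSK and 48.8 ± 3.498 CPM for URE-LSK, and 130 ± 4.43 CPM for WT-GMP and 57.6 ± 6.81 CPM for URE-GMP. It fell with log2 fold changes of -1.02 ± 0.08 in LSK and -1.18 ± 0.08 in GMP (adjusted p = 1.72e-07 and 2.45e-08), which were -0.27 and -0.48 with 50 kb on each side. The Csf2rb2 sum fell with log2 fold changes of -0.76 ± 0.08 in LSK and -0.28 ± 0.08 in GMP (adjusted p = 3.1e-06 and 0.00669).

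The Csf2rb sum was 71.0 ± 0.895 CPM for WT-LSK and 55.5 ± 4.21 CPM for URE-LSK, a fall of -0.36 ± 0.06 (adjusted p = 0.00021). In GMP it was 95.8 ± 4.78 and 100.1 ± 1.90 CPM, with 0.06 ± 0.06 (adjusted p = 0.378). Its interaction of 0.42 ± 0.08 and that of Csf2rb2, 0.47 ± 0.11, passed the test (adjusted p = 0.00238 and 0.00717). The sums of Csf3r, with opposite changes inside its window and the promoters of Mrps15 and Oscp1 in it, and of Il3ra had log2 fold changes of -0.03 to 0.17 with adjusted p from 0.0609 to 0.733. In its body alone the Csf3r sum was -0.39 in LSK (adjusted p = 0.0618). The Il3ra value in GMP passed the adjusted p with the replicate block (0.18, adjusted p = 0.0484), with DESeq2, RLE size factors, library size only or loess offsets, and when WT-GMP replicate 1 (0.30) or URE-GMP replicate 1 (0.22) was left out, and its interaction did without WT-GMP replicate 1 (0.21). The sums in GMP depended on the scaling: with the factors of the single regions, chosen after the data were seen, that of Csf2rb2 was -0.12 (adjusted p = 0.134) and that of Csf2rb 0.22 (adjusted p = 0.00328). With these factors the GMP sums of Il3ra, 0.33 (adjusted p = 0.00308), and Csf3r, 0.19 (adjusted p = 0.0249), passed as well. So did that of Il3ra in LSK, 0.26 (adjusted p = 0.0151).

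The sequence of the regions was searched in the central 300 bases on both strands. The PU.1 motif was in 7 of the 45 regions (15.6%) against 8.70% of all regions, the RUNX motif AACCACA in 7 (15.6%) against 14.4%, and the CEBP motif TTGCNNAA in 8 (17.8%) against 16.4%. The motif CCGGAAGT of other ETS factors, which shares the letters GGAAGT with that of PU.1, was in 0 of the 45 and in 1.22% of all. The 7 with the PU.1 motif were the promoters of Csf2rb2 and Csf2rb and the regions Csf2rb +30 kb, Csf1r -14.5 kb, Csf1r +26.6 kb, Csf3r +3.6 kb and Csf3r +6.4 kb. Of these, 5 fell in LSK and 3 in GMP and none rose, with median log2 fold changes of -2.07 and -0.55. Searched over their whole length, 9 of the 45 regions held the motif (20%, against 10.5% of all), and the pair added were Csf3r -6.6 kb, which rose in both cell types, and Csf3r +33.7 kb, which was called in neither. Over all regions with the motif in the central 300 bases, 58.2% were called lower in LSK and 52.6% in GMP, with medians of -1.45 and -1.11.

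Of the 38 regions without the PU.1 motif, 13 fell and 3 rose in LSK, and 10 fell and 3 rose in GMP. Most of the losses were thus at regions where these letters were not found. Of all regions without the motif, 20.7% were called lower in LSK and 21.3% in GMP. Only the exact letters were searched and PU.1 binding was not measured, so that a region without them may still bind PU.1. Of the 7 regions with the RUNX motif, 2 rose and 1 fell in LSK, and 1 rose and none fell in GMP. Of all regions with this motif, 24.2% were called higher and 20.4% lower in LSK, and 21.6% and 21.9% in GMP. Of the 8 regions with the CEBP motif, 1 rose and 3 fell in LSK, and 1 rose and 2 fell in GMP. Of all regions with the CEBP motif, 18.0% were called higher and 23.15% lower in LSK, and 27.3% and 19.9% in GMP. RefSeq promoter stretches of 300 bases around a start site, on GRCm38, were held for Csf3r, Csf2rb2 and Il3ra, 3 of the 5 genes, with none for Csf1r and Csf2rb. They held 1 PU.1 motif, at Csf2rb2, and 1 CEBP motif, at Il3ra, motifs present in 3.2% and 10.8% of 32851 such stretches.

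The other genes of the same signalling pathways were read at their promoters. Of 57 listed genes, 50 had a promoter region, and Csf2ra, Epor, Il34, Csf3, Il3, Il5 and Cbl had none. In LSK 0 of the 50 rose and 3 fell, and in GMP 1 rose and 3 fell, where 2.27% of 15618 promoter regions were called higher and 5.05% lower in LSK, and 3.14% and 5.67% in GMP. With DESeq2 0 rose and 2 fell in LSK, and with GC content offsets 1 rose and 2 fell there and 2 fell in GMP. With no fold threshold, 25 of the 50 were higher and 5 lower in LSK at an adjusted p under 0.05 in edgeR's test, against 41.1% and 8.46% of all promoter regions, and 28 were higher at an unadjusted p under 0.05. The medians of the 50, 0.21 in LSK and 0.15 in GMP, were near those of all promoter regions, 0.23 and 0.17.

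Among the 12 receptors of the same families with a region, Il5ra and Il7r fell in both cell types. Il5ra, the alpha chain that pairs with the common beta chain to bind IL-5, gave 0.630, 0.857 and 0.704 CPM for WT-LSK, 0.0476, 0.140 and 0.107 CPM for URE-LSK, 2.01, 1.85 and 1.80 CPM for WT-GMP and 0.0431, 0.104 and 0.121 CPM for URE-GMP. The log2 fold changes were -2.86 ± 0.44 and -4.35 ± 0.41 (adjusted p = 3.3e-05 and 3.59e-07), the latter deeper than that of any of the 45 regions in GMP. Their sizes rest on few counts, 2 to 5 per URE-LSK library and 2 to 6 per URE-GMP library. Il7r, the IL-7 receptor of lymphoid progenitors, went in LSK from 5.26 to 0.384 CPM and in GMP from 5.08 to 0.742 CPM. Il2rg, the common gamma chain, rose in GMP from 3.13 to 8.64 CPM (adjusted p = 1.7e-06).

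Of 17 kinases, STAT factors and adaptors, only the tyrosine kinase Fes was called, in LSK from 41.8 to 20.3 CPM (a log2 fold change of -1.04, adjusted p = 1.7e-07), with 47.9 and 58.3 CPM for WT-GMP and URE-GMP. Jak2, a JAK kinase of the cytokine receptors of the group, had 0.24 in LSK and 0.29 in GMP on the log2 scale (adjusted p = 0.00563 and 0.00135). Of the 4 ligands with a region, Csf2, the gene of GM-CSF, fell in GMP from 4.77 to 2.23 CPM (-1.11, adjusted p = 0.000202). No inhibitor of 9 was called, though 5 in LSK and 5 in GMP, not all the same genes, had an unadjusted p under 0.05 in edgeR's test. At an adjusted p under 0.05, 3 were higher and 2 lower in LSK, and 1 was higher and 3 were lower in GMP. Of all promoter regions, 41.1% were higher and 8.46% lower in LSK at that adjusted p, and 36.5% and 12.9% in GMP. Ptpn6, the phosphatase SHP-1, came nearest to the fold threshold in LSK, from 27.3 to 17.4 CPM (-0.64, adjusted p = 4.64e-05), and Socs3, the feedback inhibitor of the G-CSF receptor, in GMP. Socs3 went in LSK from 66.8 to 98.6 CPM and in GMP from 46.4 to 81.0 CPM (0.56 and 0.81, adjusted p = 0.000127 and 4.3e-06). No target of 8 was called. With no fold threshold, 7 in LSK and 6 in GMP were higher in URE at an adjusted p under 0.05 in edgeR's test, and 0 were lower. Of all promoter regions, 41.1% and 36.5% were higher at that adjusted p. The medians of the 8 targets were 0.28 in LSK and 0.30 in GMP, against 0.23 and 0.17 over all promoter regions.

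The promoters whose accessibility over the 12 libraries was most like that of each receptor gene were found by Pearson's r of log2 CPM among promoter regions on other chromosomes. The libraries fall into 4 groups, so that r mostly describes the order of the groups. For Csf1r they were Arhgap9 (r = 0.997), 9430069I07Rik (0.992) and Tyrobp (0.990), the last the gene of the adaptor DAP12, which in LSK went from 4.04 to 0.544 CPM and in GMP from 13.5 to 3.45 CPM. For Csf2rb2 they were Syk, a kinase recruited by such adaptors (r = 0.996), Tmem116 (0.992) and Ccl24 (0.992). Among those nearest to Csf2rb were Lyz2, the lysozyme of myeloid cells (r = 0.962), and I830077J02Rik (0.961). The nearest to Csf3r were Rgs14 (r = 0.953), Spns3 (0.911) and Lage3 (0.908), and those to Il3ra were Frs2 (0.983), Zfp384 (0.980) and Rnf6 (0.978).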

How the data were processed

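ATAC-seq (OmniATAC) libraries of 12 mouse samples were analysed, 3 per genotype and cell type. The authors deposited raw counts per region for 121336 regions: reads were trimmed with cutadapt and aligned with Bowtie2 to GRCm38, duplicates were removed, peaks were called per group with Genrich and merged with bedtools, and featureCounts gave the counts, as the methods and the submitters' processing notes name these tools. Versions, and whether fragments or read ends were counted, are not given in the sources used here. Region starts were taken as 0-based and are printed with 1 added. A table column for each of the 12 libraries was used.

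Regions overlapping the gene body of GENCODE M21 basic with 20 kb on each side were members. Counts were fitted in edgeR 4.0.16 (R 4.3.3, limma 3.58.1) with TMM factors, 1 coefficient per group over all 12 libraries, and the two-sided quasi-likelihood test with Benjamini-Hochberg adjustment over all 121336 regions. The edgeR filter on low counts removed 0 regions. A region was called at an adjusted p under 0.05 and an absolute log2 fold change over 1. Values after ± are SE for log2 fold changes and SD over 3 libraries for levels. Locus sums were fitted alike over 18435 genes, with TMM factors of their own. P-values rest on an estimate of the spread between mice within groups that is shared by all 4 groups, and not on that of the compared groups alone. The scripts were tested on simulated data. A promoter region was within 500 bp of a start site.

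Full values are given for each gene's promoter region and for every region called in a genotype contrast or in the interaction, and the 3 promoters with the highest correlation are named, except 1 for Csf2rb that is not reported here. The members, lists and tests were chosen with earlier results of these data known. Alternatives were DESeq2 1.42.0, other scalings, loess and GC content offsets, filters on low counts, a test against the fold threshold (glmTreat), other windows, a replicate block and each library left out.

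The labels number the replicates 1 to 3 in each group without saying that a number marks 1 mouse. Correlations of same-numbered deviations from the group means were 0.150, 0.063 and -0.109 between WT-LSK and URE-LSK, and 0.117, 0.236 and 0.422 between WT-GMP and URE-GMP. They were 0.223, 0.257 and 0.264 between WT-LSK and WT-GMP and 0.112, 0.319 and 0.172 between URE-LSK and URE-GMP. For libraries of different numbers they were -0.176 to -0.0436 between WT-LSK and WT-GMP and -0.259 to 0.098 between URE-LSK and URE-GMP. Whether LSK and GMP of a number came from the same mouse is not known. The main fit took all libraries as unpaired. No libraries of a group agreed within sampling noise.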

Additional observations from a re-analysis of the deposited data

Results flagged for a closer look

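The genotype effect differed between GMP and LSK by the test of the interaction (edgeR's quasi-likelihood test, adjusted p under 0.05) at several of these regions, with the values on the log2 scale and GMP minus LSK. At Csf1r they were 2.60 at the promoter region, 1.86 at +15.2 kb, 1.03 at +26.0 kb and -1.43 at +2.2 kb. At the Csf2rb2 promoter region the value was 1.83, at Csf2rb +30 kb it was 1.82 and at Csf2rb +5.9 kb it was 1.01. At the Csf2rb promoter region it was 0.54, past the adjusted p but not the fold threshold. The locus sums differed by 0.42 at Csf2rb and 0.47 at Csf2rb2, and their windows share 4 regions.

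Among the other genes of the pathways, the promoter of Fes differed by 1.33 (adjusted p = 1.91e-05), being lower in URE in LSK and not in GMP. The promoter of Il10ra, a receptor chain of IL-10, differed by -1.17 (adjusted p = 0.00151), with 7.57 and 13.3 CPM in WT-LSK and URE-LSK and 8.14 and 6.35 CPM in WT-GMP and URE-GMP.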

How the results depend on the processing

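The filter on low counts removed no region, so that leaving it out was the same fit. DESeq2, RLE size factors and the replicate block kept the call and direction of all 62 named region values tested. Of the 18 regions lower in LSK, 14 kept the call with each library left out and 11 under the other alternatives run on them, and of the 13 lower in GMP, 11 did in each case. A minimum mean of 2 CPM left out 9 of the 18 and 6 of the 13, which have no value there. In LSK the higher calls were 1 with a minimum mean of 2 CPM, with glmTreat or in gene bodies only, and 7 within 50 kb, and the lower calls were 11 with GC content offsets and 9 at 2 CPM. In GMP the higher calls were 0 at 2 CPM, 1 in gene bodies and 9 within 50 kb, and the lower calls 7 at 2 CPM. For GMP against LSK in WT the higher calls were 9, 10 and 29 at 2 CPM, in bodies and within 50 kb, and the lower calls 4 by library size only or within 50 kb, 0 at 2 CPM or with glmTreat, and 2 to 4 with a library left out. In URE they were 11, 10 and 36 higher in the same order, and lower 1 at 2 CPM and 7 within 50 kb. The positive interactions were 2 with glmTreat and 10 within 50 kb, and the negative ones 2 with loess or GC content offsets or the replicate block with GC content offsets, 0 with glmTreat and 1 to 2 with a library left out. Pathway promoters higher in LSK were 1 with GC content offsets.

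The locus sum of Il3ra in GMP passed the adjusted p with DESeq2 (0.195), RLE size factors (0.196), library size only (0.181), loess offsets (0.175) and the replicate block (0.178), which changed no other call named here but for 7 positive interactions in place of 6. It ranged from 0.106 to 0.302 with a library left out, and its interaction from -0.00334 to 0.206. With the TMM factors of the regions, chosen after seeing the data, the Il3ra sum was 0.331 in GMP and 0.262 in LSK. With these factors Csf3r was 0.119 in LSK and 0.186 in GMP, Csf2rb in GMP 0.223 and Csf2rb2 in GMP -0.124. Both Il3ra values and those of Csf3r and Csf2rb in GMP passed the adjusted p, and Csf3r in LSK (adjusted p = 0.137) and Csf2rb2 in GMP did not. Within 50 kb the Csf1r sum was -0.267 in LSK and -0.476 in GMP. There Csf2rb2 in GMP was -0.166, no longer past the adjusted p (0.0501 in edgeR's test), and the Csf1r interaction -0.209, now past it (0.025). In its body alone Csf3r was -0.388 in LSK and -0.199 in GMP. With a library left out the Csf3r sum ranged from -0.0777 to 0.0202 in LSK, -0.038 to 0.092 in GMP and -0.00422 to 0.139 for the interaction.

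Values that changed sign were mostly near 0. Csf2rb +7.4 kb was an exception in both cell types, with the called loss in LSK (-1.19) and a value not called in GMP (-0.50). The Csf2rb promoter in GMP was -0.116 by library size only, -0.097 with loess offsets, -0.064 at 2 CPM and -0.027 to 0.012 with a library left out. The Csf3r promoter in LSK was -0.083, -0.076 and -0.017 with library size only, loess offsets and only the groups compared, and -0.153 to 0.188 with a library left out. With loess offsets the Il3ra promoter was -0.012 in LSK and -0.022 in GMP, Csf2rb +7.4 kb was 0.148 and 0.505, and Csf2rb +5.9 kb in LSK was 0.022, with 0.222 under GC content offsets and 0.216 under the replicate block with GC content offsets. The Il3ra promoter interaction ranged from -0.121 to 0.052. The cause of these shifts was not tested. Scaling moved the median over all regions in LSK from 0.137 to 0.017 by library size only, 0.286 with loess and 0.326 with GC content offsets. Weak regions have few counts, so that calls there rest on little depth.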
